A study of Dermatophagoides pteronyssinus with 3 samples.

Results

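Contigs longer than 1000 bases were 1296 of the 47844 assembled sequences in 3 RNA libraries of the house dust mite Dermatophagoides pteronyssinus. They were chosen by length alone, in each of 3 contig tables: 1134 of 29244 contigs in band 1, 115 of 9996 in band 2 and 47 of 8604 in band 3. All 3 libraries came from total RNA that was taken with Trizol from a commercial standard mite culture (Greer), and they differ in the piece of gel the RNA was cut from. Band 1 is RNA longer than 500 bp, band 2 is RNA of about 300 bp and band 3 is RNA of 50 to 150 bp. The submitters describe the material as immunogenic RNA, no treatment was applied, and each band is 1 library. The sources used here do not give the number or stage of the mites or what else lived in the culture, so a contig need not be mite sequence.

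House dust mites are a major source of indoor allergens, and their extracts carry RNA as well as protein. In total RNA of an animal most of the mass is ribosomal RNA, which is made as long molecules and can be cut into shorter pieces, while messenger RNAs are many kinds of molecule at lower levels each. The library kit removes ribosomal RNA with probes made for human, mouse and rat. An assembler such as Trinity, whose naming form these contigs carry, joins overlapping reads into longer sequences, so that a contig can be longer than any single RNA molecule that went into the library. It groups contigs with connected sequence into components, and within a component into genes and isoforms, which are the assembler's terms and need not be genes of the mite. Read depth on a contig is given here as mean coverage, the number of reads that lie on an average base.

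The deposited tables name contigs but pair them with neither sequences nor genes, and no contig is assigned here to an RNA class. Names were given separately in each band and no contig of a band is matched to a contig of another. Bands 1, 2 and 3 had 99600344, 60134651 and 38218991 reads placed on listed contigs. No band has a replicate, no test was made, and each comparison below is between single libraries. Exact 95% counting intervals of the shares of a library's placed reads reach at most 0.0151 percentage points to either side. They cover counting error only, since the reads carry no molecular identifiers and several can stem from the same molecule. Shares of contigs are complete counts over the tables and carry no interval.

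At the length limit, the shortest contigs counted were set beside the longest left out, which was 1 contig in each band. So few contigs do not show whether those on both sides of the limit are alike. In band 1 the 6 contigs of 1001 bases had a coverage of 4.52 to 16.3, and the single contig of 1000 bases had 6.96. The shortest contigs counted in bands 2 and 3 had 1003 bases, with a coverage of 5.23 and 10.2 in band 2 and of 2.92 and 4.99 in band 3. The longest contigs left out, with 998 bases in band 2 and 992 in band 3, had a coverage of 5.13 and 7.56.

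Contigs over 1000 bases were few in every band, but in bands 1 and 3 their share of the reads was well above their share of the assembled bases. In band 1 they were 3.88% of the contigs, 19.7% of the assembled bases and 50.2% of the placed reads. In band 3 they were 0.546% of the contigs, 4.01% of the bases and 35.3% of the reads. At this length limit band 2 went the other way, with 1.15% of the contigs, 6.86% of the bases and 3.77% of the reads. The share of reads was thus 2.54 times the share of bases in band 1, 8.80 times in band 3 and 0.549 times in band 2. In band 2 the direction turned with the limit: contigs over 750 bases had 10.4% of the bases and 15.3% of the reads, a ratio of 1.47, while over 1500 bases it was 0.336.

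The same contrast shows in depth per base. Averaged over all their bases, contigs over 1000 bases had a coverage of 2539 in band 1, against 617 on the shorter contigs, a ratio of 4.11. In band 3 the values were 16610 and 1267, a ratio of 13.1. In band 2 they were 1265 and 2369, so that the long contigs lay at 0.534 times the depth of the shorter ones. Without the component with most long-contig reads in each library, the ratios of bands 1, 2 and 3 were 3.13, 0.236 and 3.66. At the limit of 1000 bases the ratios of bands 1 and 3 thus stayed above 1 without that component. The size of the ratio in bands 2 and 3 rested on it. Because that component was chosen for its long-contig reads, leaving it out lowered the ratio in each band. For band 2, where the ratio was already below 1, this was no check of the direction.

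Median and mean depth were far apart in every band. In band 1 the median long contig had a coverage of 8.92, with quartiles at 5.80 and 14.4 and a highest value of 553001. In band 2 the median was 9.51, with quartiles at 6.19 and 48.2 and a highest value of 62562. In band 3 the median was 222, with quartiles at 8.07 and 25244 and a highest value of 103193. Few contigs of band 3 lay near this median: 5 of 47 had a coverage from 100 to 300, while 18 were under 10 and 19 over 1000. Counting only the longest contig of each Trinity gene, the medians were 9.63, 9.88 and 9.35 in bands 1, 2 and 3. These coverages are not scaled by placed reads, of which band 3 had the fewest, and no scaled median per gene was computed. Whether isoforms account for the higher median of band 3 was not tested. By RPKM, which is scaled by length and by placed reads, the median long contigs of bands 1, 2 and 3 had 0.888, 1.58 and 57.9.

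**Figure D1:**
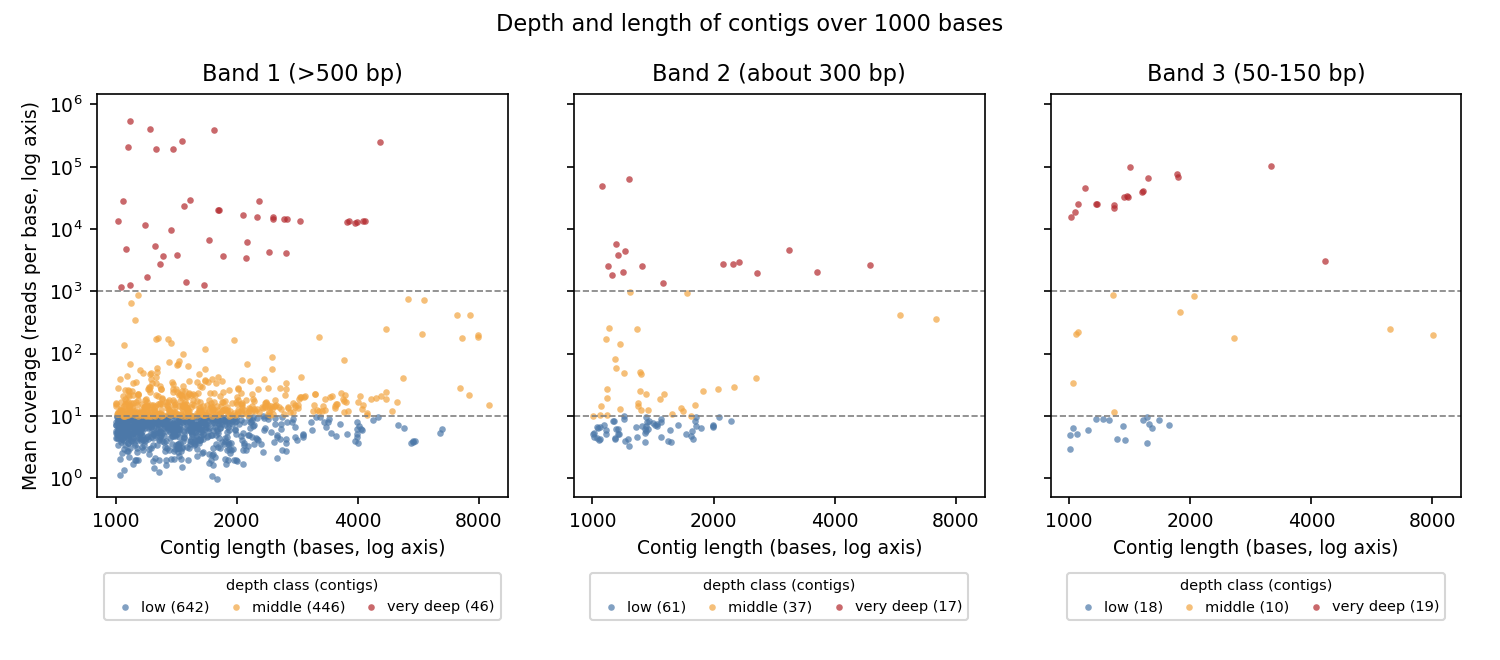
Each point is a contig over 1000 bases, with its length in bases on the horizontal axis and its mean coverage in reads per base on the vertical axis, both on log axes, and 1 panel per band; dashed lines mark a coverage of 10 and of 1000. Band 1 has a dense cloud around its median of 8.92 and 46 points above 1000, and band 3 has 18 points below 10 and 19 above 1000.

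Long contigs fell into 3 depth classes: low (coverage under 10), middle (10 to 1000) and very deep (over 1000). Low depth was the most frequent class in bands 1 and 2, while in band 3 very deep and low contigs were nearly equal in number. Of the 1134 long contigs of band 1, 642 (56.6%) were low, 446 (39.3%) middle and 46 (4.06%) very deep. Among all contigs of band 1 the shares were 93.4%, 5.34% and 1.23%. Of the 115 in band 2, 61 (53.0%) were low, 37 (32.2%) middle and 17 (14.8%) very deep, against 90.4%, 5.71% and 3.87% of all contigs. Of the 47 in band 3, 18 (38.3%) were low, 10 (21.3%) middle and 19 (40.4%) very deep, against 78.7%, 14.6% and 6.72% of all contigs. In each band the long contigs thus held fewer low and more very deep contigs than the whole table, and the share of very deep contigs rose from band 1 to band 3. With coverage scaled to the placed reads of band 3, the share of low contigs was 88.3%, 64.3% and 38.3%. The very deep share was then 3.62%, 13.9% and 40.4%. This scaling lowers every coverage of bands 1 and 2, so their share of low contigs could not fall. No assembly was made from fewer reads, so the effect of sequencing depth on these shares was not measured.

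Counted by component, the rise from band 1 to band 3 was smaller. Very deep long contigs lay in 16 of 695 components with a long contig in band 1 (2.30%), in 9 of 82 in band 2 (10.98%) and in 5 of 27 in band 3 (18.5%). On average each of these components held 2.88, 1.89 and 3.80 very deep long contigs in bands 1, 2 and 3. Components whose long contigs were all low made up 50.2%, 52.4% and 59.3%, the largest group in every band. This low share uses coverage not scaled to placed reads, of which band 3 had the fewest, so its order between bands was not compared. Shares of depth classes over all 23553, 8702 and 5814 components of bands 1, 2 and 3 were not computed.

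The very deep contigs held nearly all reads of the long contigs, as very deep contigs did in each library as a whole, where they had 98.9%, 99.2% and 98.0% of the placed reads of bands 1, 2 and 3. In band 1, 46 contigs with 94062 bases in all, 4.76% of the bases of the long contigs, held 99.1% of their reads. In band 2, 17 contigs with 18.2% of the bases held 95.4%, less than over the whole library. In band 3, 19 contigs with 37.6% of the bases held 99.4%. The 642 low contigs of band 1 shared 62168 reads, 0.0624% of the library. The 61 low contigs of band 2 had 5431 reads (0.00903%) and the 18 of band 3 had 1627 reads (0.00426%). Long contigs with under 100 reads were 396, 40 and 9 contigs of bands 1, 2 and 3, and the lowest read counts were 12, 41 and 29.

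**Figure D2:**
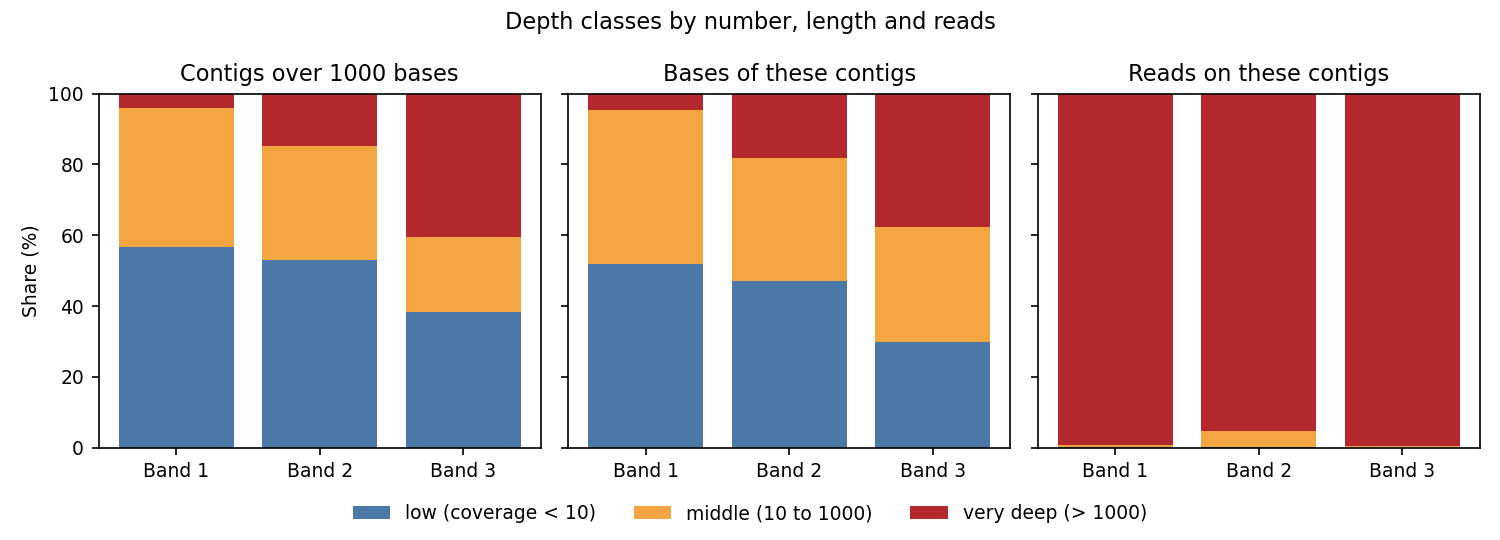
Stacked bars give the share (%) of each depth class among the contigs over 1000 bases (left), their summed bases (middle) and the reads placed on them (right), for the 3 bands. Very deep contigs are 4.06%, 14.8% and 40.4% of the long contigs of bands 1, 2 and 3 and hold 99.1%, 95.4% and 99.4% of the reads on them.

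Within the very deep class, band 1 had separate tiers. The 8 contigs with a coverage over 100000 held 80.1% of the reads on long contigs. No long contig had a coverage from 30000 to 100000. The 21 contigs from 10000 to 30000 held 16.8%, and the 17 contigs from 1000 to 10000 (6 under 3000 and 11 above) held 0.246% and 1.90%. Band 2 had a pair of contigs from 30000 to 100000 with 56.9% of the reads on long contigs, none from 10000 to 30000, and 15 from 1000 to 10000 (11 under 3000 and 4 above) with 24.9% and 13.5%. Band 3 had 10 contigs from 30000 to 100000 with 60.8%, 1 above them with 24.2% and 7 from 10000 to 30000 with 13.4%. Its single contig from 1000 to 10000 had 0.988%. The long contigs nearest to the limit of 1000 had a coverage of 891 and 1178 in band 1. They had 987 and 1368 in band 2, and 882 and 3085 in band 3. From 300 to 1000 lay 7, 4 and 3 long contigs of bands 1, 2 and 3, and from 1000 to 3000 lay 6, 11 and 0.

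Depth was also set side by side among the long contigs of each component. Shorter contigs were left out, and long contigs of different components were not paired as a reference. The quartiles of coverage over all long contigs were 5.80 and 14.4 in band 1, 6.19 and 48.2 in band 2, and 8.07 and 25244 in band 3. At least 2 long contigs were found in 212, 22 and 8 components of bands 1, 2 and 3, and there the median ratio of the deepest to the shallowest long contig was 1.58, 1.25 and 1.78. In band 1, 1 component passed a ratio of 10, at 19.4, and the highest ratios in bands 2 and 3 were 3.20 and 3.16. No component of any band joined a very deep long contig with a middle or low one. Components with only 1 long contig could not do so, and some very deep ones, such as TRINITY_DN10366_c2, were of this kind. Shorter contigs of very deep components could be shallow. In TRINITY_DN10359_c3 of band 1 the lowest coverage on a shorter contig was 1.28, while its long contigs had 4745 to 15563. Low and middle long contigs shared a component in 60 components of band 1 and 3 of band 2, and in no component of band 3. Isoforms of a gene can share sequence, and no source used here says how reads on shared sequence were divided. Whether the depths within a component are those of separate molecules was not tested.

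In band 1, 3 components held 74.8% of the reads on long contigs. TRINITY_DN10360_c24 had 3 long contigs of 1083 to 1756 bases and 16.5% of the library's reads. The deepest was TRINITY_DN10360_c24_g4_i1, with 1083 bases, 5968403 reads and a coverage of 553001, the highest of any long contig in the 3 tables. TRINITY_DN10360_c24_g3_i3 (1756 bases) and TRINITY_DN10360_c24_g3_i2 (1460 bases) are isoforms of another gene of that component, at a coverage of 389345 and 254750. TRINITY_DN10368_c51 followed with 13.9% of the library. Most of that was on TRINITY_DN10368_c51_g1_i1, whose 4541 bases were all covered, at a coverage of 252382 with 11417037 reads. The other long contig of the component, TRINITY_DN10368_c51_g2_i2 (1259 bases), had a coverage of 190530. TRINITY_DN10368_c50 held 7.13% on TRINITY_DN10368_c50_g3_i1 (1215 bases, coverage 404056) and TRINITY_DN10368_c50_g3_i2 (1074 bases, coverage 205221). These 7 contigs and the single long contig of TRINITY_DN10366_c2, with 1389 bases and a coverage of 190907, make up the tier over 100000, and all 8 were covered at every base.

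In band 2 the 2 long contigs of TRINITY_DN2587_c8 held 56.9% of the reads on long contigs, which is 2.15% of the library. TRINITY_DN2587_c8_g1_i9 had 1232 bases, 766417 reads and a coverage of 62562. TRINITY_DN2587_c8_g2_i1 had 1056 bases, 523753 reads and a coverage of 49856. Both stood apart from the rest of the band, where the next highest coverage was 5671, on TRINITY_DN2575_c0_g2_i1 (1142 bases). TRINITY_DN2596_c11 had 4 long contigs of 1155 to 3080 bases, all fully covered at 2709 to 4705, with 0.495% of the library. TRINITY_DN2598_c4 had 1 long contig, TRINITY_DN2598_c4_g1_i7, of 4889 bases at a coverage of 2658, with 0.215% of the library. TRINITY_DN2589_c4_g1_i2, the fifth by reads, had 3620 bases at a coverage of 2037.

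In band 3 a single component, TRINITY_DN3414_c60, held 78.2% of the reads on long contigs and 27.6% of the library. Its 9 long contigs had 1093 to 3171 bases and a coverage of 32694 to 103193. They belong to 2 Trinity genes, and the gene with most reads on long contigs held 42.9% of all reads on long contigs. The deepest were TRINITY_DN3414_c60_g2_i3 (3171 bases, coverage 103193) and TRINITY_DN3414_c60_g1_i13 (1413 bases, coverage 99288), which differ in length but hardly in depth. TRINITY_DN3414_c60_g1_i10 (1856 bases, coverage 75587), TRINITY_DN3414_c60_g1_i7 (1869 bases, coverage 67491) and TRINITY_DN3414_c60_g2_i1 (1570 bases, coverage 66451) followed. The next components, TRINITY_DN3406_c24 and TRINITY_DN3409_c36, had 4 long contigs each and 3.28% and 3.17% of the library, at a coverage of 18809 to 33368 and of 15444 to 32340.

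In bands 1, 2 and 3, 50% of the reads on long contigs lay on 2, 1 and 1 components and 99% on 15, 13 and 5. By single contigs, 50% took 4, 2 and 4 contigs and 99% took 43, 22 and 19. The share of the highest component thus rose from 33.0% in band 1 to 56.9% in band 2 and 78.2% in band 3, over long-contig totals of 49974125, 2265474 and 13472808 reads. Counted by Trinity gene in place of component, the highest gene held 22.8%, 33.8% and 42.9%, in the same order of bands.

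Long contigs never made up the whole of a very deep component, and their part in its reads varied widely. Every very deep long contig shared its component with other contigs, with a median of 10 contigs per component in bands 1 and 2 and 17 in band 3, over these contigs. In band 1 the long contigs held 73.7% of the reads of TRINITY_DN10360_c24, 92.6% of TRINITY_DN10368_c51, 83.2% of TRINITY_DN10368_c50 and 46.2% of TRINITY_DN10366_c2. In band 2 they held 55.6% of the reads of TRINITY_DN2587_c8, 95.3% of TRINITY_DN2596_c11 and 14.2% of TRINITY_DN2575_c0. In band 3 they held 91.6% of TRINITY_DN3414_c60, but only 26.4% of TRINITY_DN3406_c24, 40.1% of TRINITY_DN3409_c36 and 11.8% of TRINITY_DN3415_c21. In these last 3 components a shorter contig was deeper than any long one: the highest coverage on a shorter contig was 185757 in TRINITY_DN3406_c24, 58972 in TRINITY_DN3409_c36 and 115021 in TRINITY_DN3415_c21. In TRINITY_DN3414_c60 the deepest shorter contig, at 59411, lay below the deepest long ones. A shorter contig was also the deepest in TRINITY_DN10360_c24 of band 1, at 592894, and in TRINITY_DN2575_c0 of band 2, at 57953. The same was found in TRINITY_DN10359_c3 (70581) and TRINITY_DN10356_c1 (1671) of band 1 and in TRINITY_DN2571_c0 (1922) of band 2.

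**Figure D3:**
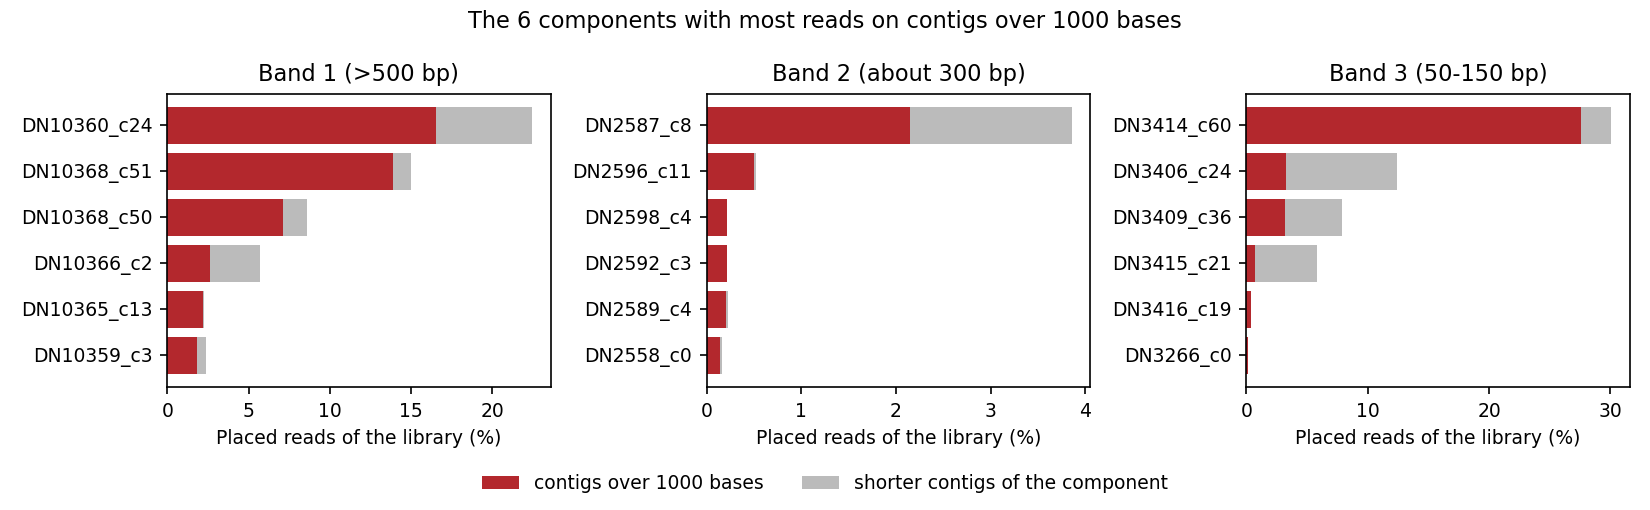
Bars give, for the 6 components with most reads on contigs over 1000 bases in each band, the share (%) of the library's placed reads on those contigs (red) and on shorter contigs of the same component (grey); the horizontal axes differ between panels. TRINITY_DN3414_c60 of band 3 is nearly all red, with 27.6% of the library on long contigs out of 30.1%, while TRINITY_DN3406_c24 has 3.28% out of 12.4%.

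Low and middle long contigs were spread over many components. Only 1 long contig was found in 483 of 695 components of band 1, 60 of 82 of band 2 and 19 of 27 of band 3. A component made of a single long contig and nothing else was found for 152 low and 114 middle contigs in band 1, 23 and 9 in band 2, and 11 and 1 in band 3, and for none of the very deep ones. The component with most long contigs in band 1 was of low depth. TRINITY_DN10265_c1 had 21 contigs of 1131 to 1723 bases among its 24, at a coverage of 1.46 to 8.19, and they shared 911 reads. None of the 21 was fully covered. In bands 2 and 3 the components with most long contigs, TRINITY_DN2596_c11 with 4 and TRINITY_DN3414_c60 with 9, were very deep throughout.

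By length, most long contigs had 1001 to 1500 bases, namely 53.9%, 67.8% and 59.6% in bands 1, 2 and 3 (611, 78 and 28 contigs). The median lengths were 1450, 1329 and 1367 bases. In band 1 the median length rose with the depth class, from 1395 bases (low) over 1510.5 (middle) to 1733 (very deep). Band 2 had 1351, 1315 and 1329 bases in these classes and band 3 had 1338.5, 1588.5 and 1396, with no such order. The longest low contigs of bands 1, 2 and 3 had 6459, 2205 and 1771 bases, and the longest very deep ones had 4541, 4889 and 4324 bases. In band 1, 68 contigs over 3000 and up to 5000 bases held 29.2% of the reads on long contigs, most of it on TRINITY_DN10368_c51_g1_i1. Their median coverage was 13.3, and 23 of them were low, 38 middle and 7 very deep. In bands 2 and 3 all contigs of that length, 3 and 2, were very deep.

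Bands 1, 2 and 3 had 21, 2 and 2 contigs over 5000 bases, and none of these was very deep. In band 1 they belonged to 10 components, 8 of the contigs were low and 13 middle, and their coverage ran from 3.74 to 751. The longest contig of band 1, TRINITY_DN10325_c0_g1_i1 (8490 bases), had a coverage of only 15.2, with 1280 reads. TRINITY_DN10352_c0_g1_i7 (7947 bases) and TRINITY_DN10352_c0_g1_i5 (7944 bases), isoforms of 1 gene, had 198 and 188. The deepest group was TRINITY_DN9944_c0, whose 4 contigs were all over 5000 bases (5323 to 7588) and had a coverage of 414 to 751.

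In bands 2 and 3 the contigs over 5000 bases came from 1 component each. TRINITY_DN2514_c0 of band 2 had contigs of 7144 and 5802 bases at a coverage of 366 and 425, with 26465 and 25006 reads. TRINITY_DN3266_c0 of band 3 had contigs of 8043 and 6276 bases, in 2 Trinity genes, at a coverage of 203 and 246, and another long contig of 2568 bases at 177. Like TRINITY_DN9944_c0, both components had no contig of 1000 bases or less. This trait was common among components with a long contig. It was found in 313 of 695 in band 1 (45.0%), 38 of 82 in band 2 (46.3%) and 14 of 27 in band 3 (51.9%). Together the long contigs of TRINITY_DN9944_c0, TRINITY_DN2514_c0 and TRINITY_DN3266_c0 held 0.146%, 0.0856% and 0.0960% of the reads of bands 1, 2 and 3. These 3 components were singled out after their values were seen, and whether they hold related sequence was not analysed here.

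Every base was covered in 573 of the 1134 long contigs of band 1 (50.5%), 61 of 115 in band 2 (53.0%) and 29 of 47 in band 3 (61.7%). Among all contigs the shares were 84.0%, 89.8% and 72.1%, so long contigs were less often covered at every base; contigs of unlike length are not matched in this comparison. Gaps were mostly small, with the lower quartile of the covered percent at 96.7, 97.8 and 99.8 in bands 1, 2 and 3. Of all bases of long contigs, 3.04%, 2.04% and 0.941% had no read, against 2.35%, 1.38% and 3.85% on shorter contigs. In band 3 the long contigs thus had a smaller share of bare bases than the shorter ones, and in bands 1 and 2 a larger share. Long contigs covered below 90% numbered 111, 8 and 2.

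Gaps lay almost entirely on contigs of genes with several contigs. Long contigs that are the only contig of their Trinity gene were fully covered in 390 of 425 cases in band 1 (91.8%), 40 of 42 in band 2 (95.2%) and 13 of 14 in band 3 (92.9%). Those of genes with at least 2 contigs were fully covered in 183 of 709 (25.8%), 21 of 73 (28.8%) and 16 of 33 (48.5%). The latter carried 59221 of 60019 uncovered bases in band 1 (98.7%), 3638 of 3671 in band 2 (99.1%) and 763 of 764 in band 3 (99.9%). The difference was also there within the low class and, less widely, within the middle class. Among low contigs of band 1, 222 of 238 single ones (93.3%) were fully covered against 50 of 404 (12.4%). In band 2 the counts for low contigs were 27 of 28 against 4 of 33, and in band 3 they were 12 of 12 against 0 of 6. Among middle contigs of band 1 they were 168 of 187 (89.8%) against 100 of 259 (38.6%), in band 2 they were 13 of 14 against 7 of 23, and in band 3, with few contigs, 1 of 2 against 3 of 8.

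**Figure D4:**
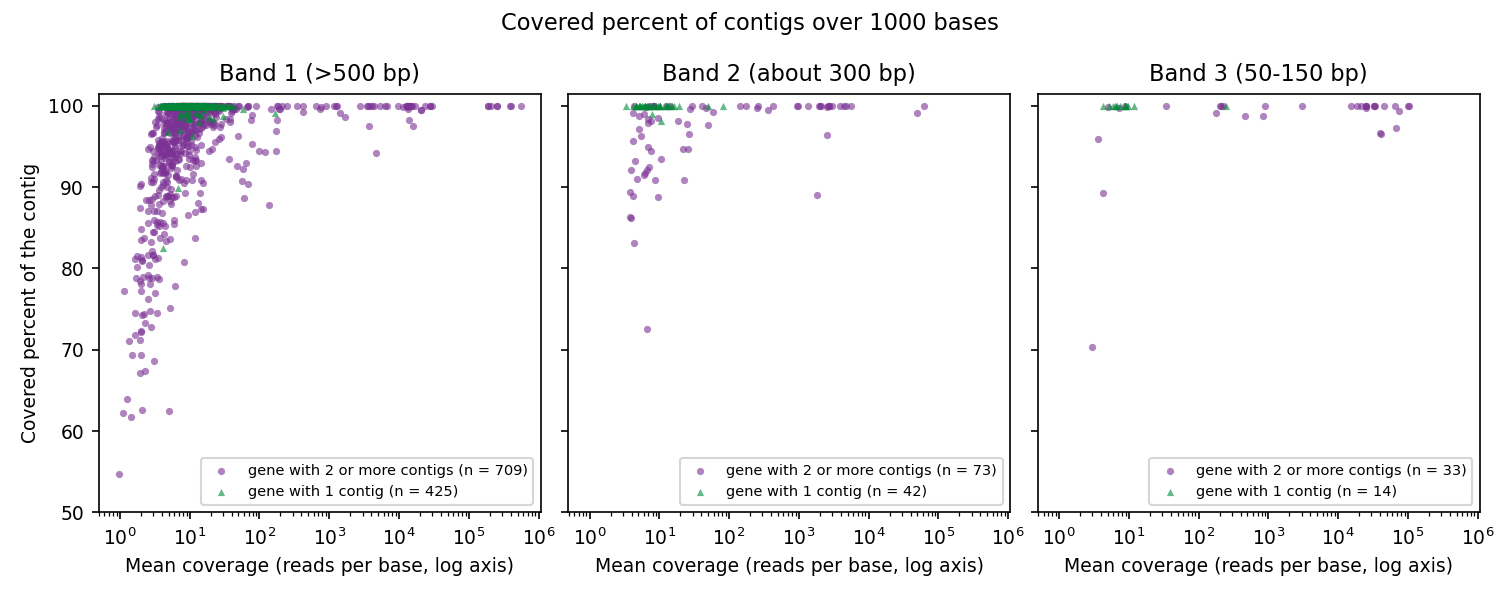
Each point is a contig over 1000 bases, with its mean coverage in reads per base (log axis) and its covered percent, 1 panel per band; triangles are the only contig of their Trinity gene and circles belong to genes with at least 2 contigs. In band 1 nearly all triangles sit at 100, while circles reach down to 54.7.

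The 3 least covered contigs of each band were all of low depth and of genes with at least 2 contigs. In band 1 they were TRINITY_DN10210_c1_g2_i16 (1782 bases, 17 reads, 54.7% covered), TRINITY_DN10265_c1_g1_i13 (1243 bases, 18 reads, 61.8%) and TRINITY_DN10115_c0_g1_i5 (1737 bases, 19 reads, 62.2%), of genes with 27, 24 and 11 contigs. In band 2 the lowest was TRINITY_DN2436_c0_g1_i2 (1027 bases, 69 reads, 72.5% covered), followed by TRINITY_DN2540_c1_g1_i5 at 83.1% and TRINITY_DN2507_c0_g1_i3 at 86.2%, of genes with 3, 9 and 3 contigs. In band 3 the lowest was TRINITY_DN3315_c0_g1_i6 (1003 bases, 29 reads, 70.4% covered), followed by TRINITY_DN1138_c0_g1_i1 at 89.3% and TRINITY_DN2623_c0_g1_i2 at 95.9%, of genes with 10, 2 and 2 contigs.

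Very deep contigs were not always complete. Every base was covered in 33 of 46 in band 1 (71.7%), 10 of 17 in band 2 (58.8%) and 13 of 19 in band 3 (68.4%), and all of these contigs belonged to genes with at least 2 contigs. TRINITY_DN2571_c0_g1_i3 of band 2 had a coverage of 1811 over 1117 bases, yet 123 of its bases had no read. TRINITY_DN10359_c3_g1_i25 of band 1 had a coverage of 4745 with 62 of 1058 bases bare. In band 3, 4 contigs of TRINITY_DN3414_c60_g1 had 12 to 53 bare bases at a coverage of 39711 to 75587. The share of the long contigs' bases without a read was 4.98%, 1.01% and 0.301% in the low, middle and very deep classes of band 1, and 3.34%, 1.04% and 0.567% in band 2. In band 3 it was 2.14%, 0.290% and 0.560%, so there the very deep class had more bare bases than the middle class. The part of read division between isoforms in these gaps was not tested.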

How the data were processed

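Total RNA from 3 gel bands of 1 mite culture was sequenced, 1 library per band. Per the submitters' processing notes, bcl2fastq and Bowtie2 were used. Not given in the sources used here are versions, the assembler's settings and how reads matching more than 1 contig were placed. Per the file headers, the authors deposited for each contig the count of reads, the mean coverage (a signal not scaled by library size), the RPKM (per 1000 bases and 1000000 placed reads) and the covered percent. Recomputed coverage and covered percent differed from the deposited values by at most 5e-05, and RPKM by at most 0.0118% on contigs with at least 100 reads. Reads placed on no listed contig are not in any share.

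Contigs over 1000 bases were taken from each table without a read minimum. Component and gene were read from the contig name. Limits of 10 and 1000 on coverage set the depth classes. Intervals are exact (Clopper-Pearson, 95%). A count of 0 reads would allow, at 3 counts, 0.0301, 0.0499 and 0.0785 reads per 1000000 placed reads in bands 1, 2 and 3. The computations were tested on read counts simulated around the observed ones. Contig names, lengths and covered percents were kept, so this could not test the number of components or the gaps. Named contigs are, per band, the 5 with most reads, the 3 longest, the 3 deepest and the 3 least covered, and the 3 components with most reads on long contigs; other named contigs and components were chosen after their values were seen. The members and lists were chosen with earlier results of these data known. Alternatives were other length and depth limits, a read minimum, 1 contig per gene, scaled coverage and left-out components. Tables were computed with pandas 2.3.3, NumPy 2.4.6 and SciPy 1.17.1 under Python 3.11.15, and figures with Matplotlib 3.10.9.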

Additional observations from a re-analysis of the deposited data

How the results depend on the processing

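Values are for bands 1, 2 and 3 in this order. No paired analysis was possible because each band has 1 library, which also means that no library could be dropped. Contigs over 1000 bases numbered 1134, 115 and 47; over 750 bases there were 1860, 225 and 99, over 1500 bases 523, 37 and 19, with 1 contig per gene 783, 87 and 30, and with at least 100 reads 738, 75 and 38. The order of the bands was the same in each. Their share of reads was 50.2%, 3.77% and 35.3%; it was 55.9%, 15.3% and 40.0% over 750 bases, 26.8%, 1.09% and 21.9% over 1500 bases, 15.1%, 0.870% and 7.95% by summed coverage, and 43.4%, 1.69% and 11.01% without the highest component. Leaving out the very deep long contigs, chosen after seeing the data, left 0.927%, 0.181% and 0.324%. Band 1 was highest and band 2 lowest in each of these settings. The share of reads over the share of bases was 2.54, 0.549 and 8.80; it was 2.16, 1.47 and 6.48 over 750 bases, so band 2 turned, and 2.18, 0.336 and 9.27 over 1500 bases, with this ratio chosen for such a check after seeing the data. Median coverage was 8.92, 9.51 and 222; it was 9.79, 10.6 and 246 over 1500 bases, 9.63, 9.88 and 9.35 with 1 contig per gene, and 3.42, 6.04 and 222 with coverage scaled to the reads of band 3. With 1 contig per gene the unscaled medians of the bands were close, no scaled median per gene was computed, and 1 contig per gene left 30 contigs in band 3. The share of low contigs was 56.6%, 53.0% and 38.3%; it was 18.8%, 13.9% and 10.6% with a limit of 5, 83.9%, 66.96% and 40.4% with a limit of 20, and 88.3%, 64.3% and 38.3% with scaled coverage, so it depends on the limit in each band and on sequencing depth in bands 1 and 2, band 3 being the one scaled to. The share of very deep contigs was 4.06%, 14.8% and 40.4% and ran from 3.62% to 4.41%, from 12.2% to 16.5% and from 40.4% to 44.7% over limits of 500 and 2000 and scaled coverage. Full coverage, 50.5%, 53.0% and 61.7%, became 79.98%, 80.9% and 95.7% when 95% of the bases sufficed, and 66.7%, 64.4% and 66.7% with 1 contig per gene, where the bands were close to each other. Components numbered 695, 82 and 27; there were 310, 26 and 10 over 1500 bases and 783, 87 and 30 counted as genes. The highest component held 33.0%, 56.9% and 78.2% of the reads on long contigs; it was 22.8%, 33.8% and 42.9% for the highest gene, and 41.5%, 69.8% and 71.4% by summed coverage. The cause of each shift beyond the change of setting itself was not tested.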
